A study of Drosophila melanogaster with 4 samples.

Results

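The genes described here, 38 in number, carry newly made secretory and membrane proteins into the endoplasmic reticulum (ER) and from there to the Golgi in Drosophila heads. They were chosen as a list of gene symbols named for these roles. The named genes encode the signal recognition particle (SRP) and its receptor, the translocon, signal peptidase, p24 and other cargo receptors, and the Rab GTPases, tether, SNAREs and SNARE regulator of ER-Golgi fusion. Of the 38, 35 were found by their gene identifier among the 15682 genes of the deposited table. KdelR, Rab1 and Slh were not matched by identifier and were not analysed here. The p24 gene p24-2 was listed at 0 in all 4 libraries. The other 34 were expressed highly enough to test, among 9049 tested genes in all. COPII coat genes are not among the 38, and no subunit of the tethering complex TRAPP is either.

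The measurements are poly(A) RNA from heads of control flies, labelled w1118 (2 libraries), and from flies labelled as expressing MJDtr-78Q (2 libraries). MJDtr-78Q is a truncated human ataxin-3 with an expanded polyglutamine tract, the kind of protein that causes Machado-Joseph disease. The transgene's driver line, the age and sex of the flies and the number of heads per library are not given in the labels, and the level of the transgene itself was not analysed here. The study's title concerns Golgi outposts in dendrites, and the comparison shown here asks whether transcripts of the early secretory route differ between the groups.

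As background, SRP binds a signal sequence as it leaves the ribosome and halts translation until the ribosome docks at the SRP receptor. The nascent chain then passes through the Sec61 channel, and signal peptidase removes the signal sequence in the ER lumen. Cargo receptors of the p24, Surf4 and ERGIC-53 families sort finished proteins into COPII vesicles, which are tethered by p115 and Rab proteins and fuse through SNARE bundles. Neurons use this route to build dendrite membrane, and photoreceptors use it to deliver rhodopsin.

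None of the 34 tested genes passed the test for a difference between MJDtr-78Q and control heads, and the measured differences were small. All values below are log2(count + 1) after quantile normalization of the 4 libraries together, and differences are MJDtr-78Q minus control with n = 2 per group. The 34 differences ran from -0.34 for Spase12 to 0.49 for TRAM, with 20 above 0 and 14 below. Over all 9049 tested genes 4217 were above 0 and 4831 below. The members' median was 0.04, against -0.02 over all tested genes. Ignoring direction, the median size of a difference was 0.10 among the members and 0.21 over all tested genes. These 2 sets were not matched for level, as the members' median level lay at percentile 63.6 of the tested genes. All 34 stayed under 0.5 in size, as did 82.1% of all tested genes. Dropping 1 control gave the members a median of -0.05 (library 1 out) or 0.15 (library 2 out), and dropping 1 MJDtr-78Q library gave 0.27 (library 1 out) or -0.24 (library 2 out), so its sign rests on single libraries.

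By limma with Benjamini-Hochberg adjustment over all 9049 genes at 0.05, 0 of the 34 passed (lowest limma adjusted p = 1.0). The background for that count is 0 of 9049 genes, or 0%. At an unadjusted p under 0.05, 0 of the 34 passed as well, where 5.88% of all tested genes did (532 of 9049). The labels do not say that libraries of a group came from separate crosses or collections, so these tests measure only the spread between the samples at hand, which may be technical. The 95% intervals of 23 members lay within 2-fold in both directions. For the other 11 members a 2-fold difference in at least one direction was not outside the interval, with the widest bounds at -1.40 and 1.16. In bulk heads, fewer cells of a type and less RNA per cell cannot be told apart.

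**Figure D1:**
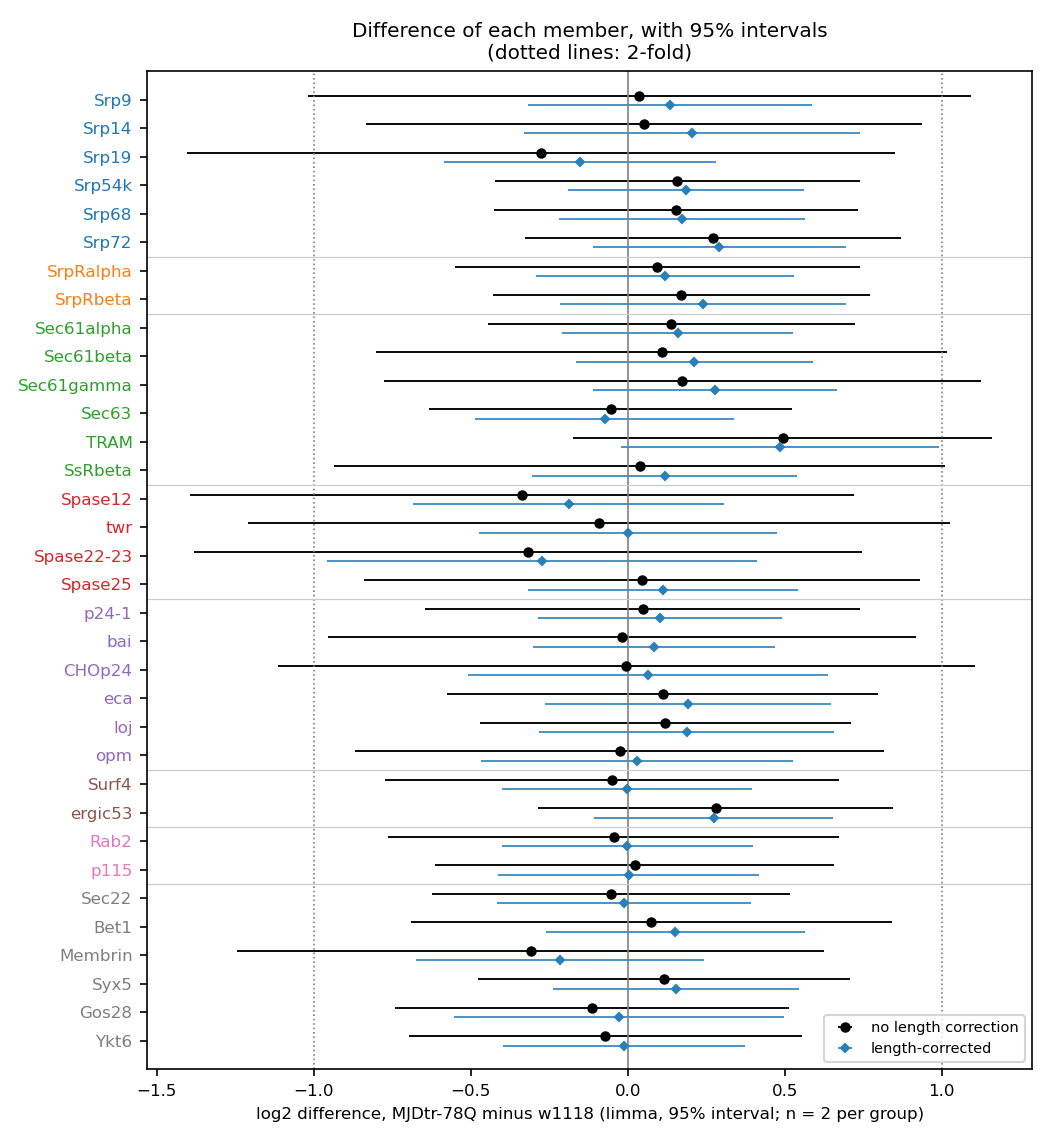
Log2 difference (MJDtr-78Q minus control, x axis) of each of the 34 tested members, grouped by role, with limma 95% intervals from 2 libraries per group; black points are uncorrected and blue diamonds corrected for exonic length, and dotted lines mark 2-fold. All 34 black points lie between -0.34 and 0.49 and every interval crosses 0; 23 of the black intervals and all 34 of the blue ones stay inside 2-fold.

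For 7 members the MJDtr-78Q values were both higher than either control (20.6%), against 14.0% of all tested genes. Both lay below for 0 members, against 15.5% of all tested genes. The 7 were Sec61alpha, Srp54k, Srp68, Srp72, SrpRbeta, TRAM and ergic53. Of these, 6 act in ER import and 1 in cargo export. The 7 had a median exonic length of 2132 bases, against 1329 bases for all tested members, and 0 of the 13 members shorter than 1000 bases were among them. The 2 libraries of a group lay farther apart for short genes, as described below. The part of length in this count was not tested.

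Among the 6 protein subunits of SRP, 5 differences were above 0 and 1 below, with a median of 0.10, or 0.18 after correction for exonic length. Leaving out control library 1 gave a median of -0.082 and control library 2 gave 0.26. Leaving out MJDtr-78Q library 1 gave 0.30 and library 2 gave -0.079. Srp54k (FBgn0010747, 3L, positions 5145777 to 5147877 in the deposited coordinates, of unstated build) is the GTPase subunit that binds the signal sequence. It stood at 8.86 and 8.86 in the controls against 8.94 and 9.10 with MJDtr-78Q. The MJDtr-78Q values were both higher, but the difference of 0.16 (SE 0.22) did not pass the test. Srp68 and Srp72 form a dimer that is part of the particle's elongation and translocation machinery. Srp72 (FBgn0038810, 3R, positions 16414436 to 16416762) had the largest difference of the particle. It stood at 7.66 and 7.71 in the controls against 7.83 and 8.09 with MJDtr-78Q, a difference of 0.27 (SE 0.23). Srp68 stood at 7.98 and 8.13 in the controls against 8.15 and 8.26 with MJDtr-78Q, a difference of 0.15 (SE 0.22). The loci of Srp68 and Srp72 overlap those of CG5644 and Pus1 in the deposited coordinates. The library kit keeps strand, but whether counting used it is not given in the sources used here, so reads of overlapping neighbours cannot be told apart from theirs. The same holds for 12 of the 34 tested members, Srp14, TRAM, Spase12, twr, Spase22-23, bai, CHOp24, Rab2, Sec22 and Membrin being the others.

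Srp9 and Srp14 form the Alu-domain dimer that pauses elongation, and Srp19 assembles the particle on its RNA. These 3 short genes had the widest spread between libraries of a group. Srp19 (FBgn0015298, 3L, positions 7340409 to 7341134) stood at 7.15 and 7.62 in the controls against 6.57 and 7.65 with MJDtr-78Q. The MJDtr-78Q libraries lay on both sides of both controls, and the gap of 1.08 between them exceeded its difference of -0.28 (SE 0.43). Srp9 stood at 7.01 and 7.57 in the controls against 6.86 and 7.79 with MJDtr-78Q, a difference of 0.04 (SE 0.41). Srp14 stood at 6.48 and 7.08 in the controls against 6.55 and 7.12 with MJDtr-78Q, a difference of 0.05 (SE 0.34). For Srp14, each MJDtr-78Q library was close to the control library of the same number, while library 2 was above library 1 in both groups.

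The SRP receptor has a GTPase subunit that meets SRP, SrpRalpha, and a membrane-anchored subunit, SrpRbeta. SrpRalpha (FBgn0010391, X, positions 11020909 to 11023120) stood at 8.74 and 8.85 in the controls against 8.71 and 9.07 with MJDtr-78Q, a difference of 0.09 (SE 0.25), and the groups overlapped. SrpRbeta (FBgn0011509, 3L, positions 8712048 to 8713325) stood at 6.91 and 6.94 in the controls against 6.96 and 7.23 with MJDtr-78Q. Its groups did not overlap, and its difference of 0.17 (SE 0.23) did not pass the test.

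Of the 6 translocon genes, 5 were above 0 and 1 below, with a median difference of 0.12, or 0.19 after length correction. Leaving out MJDtr-78Q library 1 gave 0.51 and library 2 gave -0.17, while leaving out control library 1 gave 0.0046 and control library 2 gave 0.19. TRAM (FBgn0040340, X, positions 829264 to 831855), a membrane protein that helps some signal sequences enter the channel, had the largest difference of all members. It stood at 8.12 and 7.87 in the controls against 8.31 and 8.66 with MJDtr-78Q. Both MJDtr-78Q values lay above both controls, and the difference was 0.49 (SE 0.26), or 1.41 times the control level, with a 95% interval of -0.17 to 1.16 (limma adjusted p = 1.0). With 1 library left out it ran from 0.31 to 0.67. Its locus overlaps that of CG32815 in the deposited coordinates, so its value is uncertain in the way given for Srp68.

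Sec61alpha (FBgn0086357, 2L, positions 6477181 to 6480489), the pore-forming subunit of the channel, was among the closest between libraries. It stood at 10.03 and 10.05 in the controls against 10.09 and 10.27 with MJDtr-78Q, a difference of 0.14 (SE 0.23). The small subunits Sec61beta and Sec61gamma bind the pore subunit and were less close between libraries. Sec61beta (FBgn0010638, 2R, positions 10506234 to 10507186) stood at 8.84 and 9.07 in the controls against 8.65 and 9.48 with MJDtr-78Q, a difference of 0.11 (SE 0.35). Sec61gamma (FBgn0031049, X, positions 19537364 to 19538528) stood at 7.87 and 8.21 in the controls against 7.78 and 8.64 with MJDtr-78Q, a difference of 0.17 (SE 0.37). For both small subunits the MJDtr-78Q libraries lay on either side of the controls. SsRbeta, a subunit of the translocon-associated protein complex, showed the same layout, with 9.01 and 9.19 in the controls against 8.67 and 9.61 with MJDtr-78Q and a difference of 0.04 (SE 0.38). Sec63, a J-domain protein that recruits the lumenal Hsp70 to the channel, stood at 9.77 and 9.65 in the controls against 9.63 and 9.68 with MJDtr-78Q. Its difference of -0.05 (SE 0.22) turned to 0.01 with TMM scaling.

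The 4 signal peptidase genes had the lowest median of any role, -0.20, with 3 below 0 and 1 above. Spase12, twr, Spase22-23 and Spase25 encode subunits of the complex, with twr encoding its catalytic subunit. Spase12 (FBgn0040623, 3R, positions 25316265 to 25316872) stood at 7.08 and 7.82 in the controls against 6.72 and 7.51 with MJDtr-78Q, a difference of -0.34 (SE 0.41). Spase22-23 (FBgn0039172, 3R, positions 20054063 to 20055757) stood at 8.15 and 8.73 in the controls against 7.66 and 8.59 with MJDtr-78Q, a difference of -0.32 (SE 0.41). In both genes library 2 was far above library 1 in each group, and the groups overlapped. The catalytic twr (FBgn0262801, 3R, positions 2483603 to 2485164) stood at 8.35 and 8.72 in the controls against 7.89 and 8.99 with MJDtr-78Q, a difference of -0.09 (SE 0.43). Spase25 stood at 7.71 and 7.93 in the controls against 7.46 and 8.26 with MJDtr-78Q, a difference of 0.05 (SE 0.34). The median of these 4 became 0.29 with MJDtr-78Q library 1 left out and -0.68 with library 2 left out. Among controls it became -0.44 with library 1 left out and 0.064 with library 2 left out. After length correction it was -0.09.

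**Figure D2:**
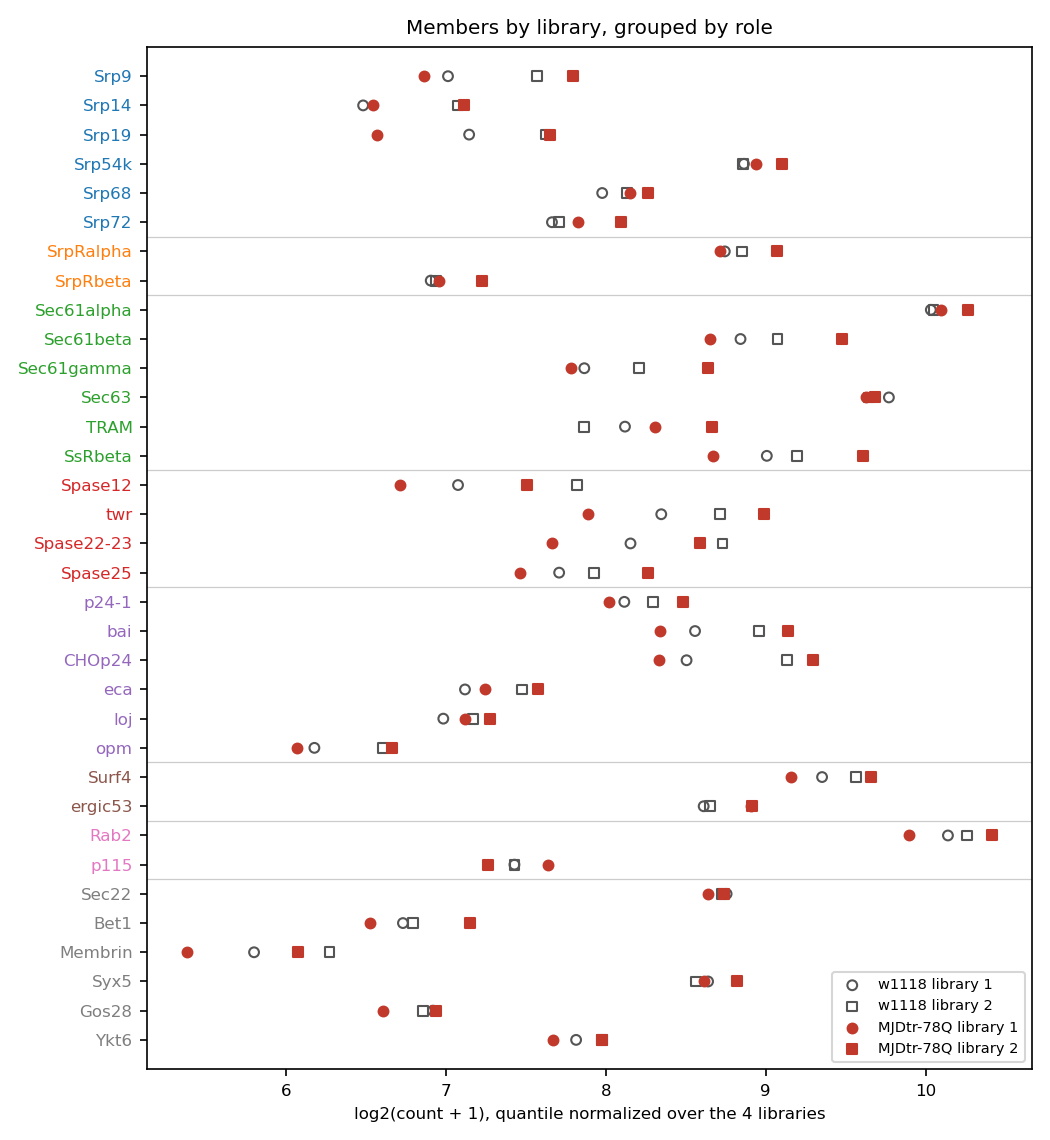
Level of each tested member in each library, as log2(count + 1) after quantile normalization (x axis), with members grouped by role; open symbols are control and filled red symbols MJDtr-78Q libraries, circles library 1 and squares library 2. In 33 of 34 members the MJDtr-78Q square lies to the right of the MJDtr-78Q circle, and in 27 of 34 the control square lies to the right of the control circle.

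The 6 tested p24 cargo receptors, which in yeast and mammals bind cargo such as lipid-anchored proteins and cycle between ER and Golgi, had differences from -0.03 to 0.12 with a median of 0.02. Leaving out control library 1 moved that median to -0.14 and control library 2 to 0.20. Leaving out MJDtr-78Q library 1 moved it to 0.28 and library 2 to -0.25, and the length correction moved it to 0.093. CHOp24 (FBgn0029709, X, positions 4434940 to 4436471) stood at 8.51 and 9.13 in the controls against 8.33 and 9.30 with MJDtr-78Q, a difference of -0.0040 (SE 0.43). Its group means were thus almost equal, while libraries of a group lay 0.63 and 0.96 apart. The baiser gene bai stood at 8.56 and 8.96 in the controls against 8.34 and 9.14 with MJDtr-78Q, a difference of -0.02 (SE 0.36). Its sign and that of CHOp24 turned to above 0 with TMM scaling, with upper-quartile scaling and in the deposited scaling. The opossum gene opm (6.18 and 6.61 in the controls, 6.07 and 6.66 with MJDtr-78Q) differed by -0.03 (SE 0.33) and p24-1 (8.12 and 8.29, then 8.02 and 8.48) by 0.05 (SE 0.27). Logjam, loj, known for its role in egg laying, stood at 6.98 and 7.17 in the controls against 7.12 and 7.27 with MJDtr-78Q, a difference of 0.12 (SE 0.23).

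The eclair gene eca (FBgn0069242, 3R, positions 5510190 to 5511198) lies 1919 bases from p24-2 (FBgn0053105, 3R, positions 5513118 to 5518516), its close relative. It stood at 7.12 and 7.48 in the controls against 7.24 and 7.58 with MJDtr-78Q, a difference of 0.11 (SE 0.26). The listing of p24-2 at 0 in all 4 libraries stands beside this level. How reads that match both copies were counted is not given in the sources used here, so the split between eca and p24-2 is uncertain. Of p24 genes outside the 38, CG31787 and CG9308 were also listed at 0 in all 4 libraries.

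Surf4, the homologue of a yeast receptor for soluble cargo, stood at 9.35 and 9.56 in the controls against 9.16 and 9.66 with MJDtr-78Q, a difference of -0.05 (SE 0.28) that turned to 0.02 with TMM scaling. The lectin cargo receptor gene ergic53 (FBgn0035909, 3L, positions 8528076 to 8531113) binds sugar chains of glycoproteins. It stood at 8.61 and 8.65 in the controls against 8.91 and 8.91 with MJDtr-78Q. Libraries within each group were close and the groups did not overlap. The difference of 0.28 (SE 0.22), or 1.21 times the control level, had a 95% interval of -0.28 to 0.85 and did not pass (limma adjusted p = 1.0). With 1 library left out it ran from 0.27 to 0.31, which was the narrowest range among the 34 members.

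Rab2 and p115 act in vesicle tethering at the cis-Golgi. Rab2 (FBgn0014009, 2R, positions 2584226 to 2587441) stood at 10.14 and 10.26 in the controls against 9.90 and 10.41 with MJDtr-78Q, a difference of -0.04 (SE 0.28) that turned to 0.01 with TMM scaling. The coiled-coil tether gene p115 (FBgn0040087, X, positions 7788069 to 7790819) stood at 7.43 and 7.43 in the controls against 7.64 and 7.26 with MJDtr-78Q, a difference of 0.02 (SE 0.24). It was the 1 tested member with MJDtr-78Q library 1 above library 2, and at 2961 bases of exon it was also the longest of the tested members.

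The 6 tested SNARE genes had differences from -0.31 to 0.12 with a median of -0.06, or 0.066 with MJDtr-78Q library 1 left out and -0.23 with library 2 left out. It was -0.028 with control library 2 left out and -0.012 after length correction. Syx5, the syntaxin at the core of ER-Golgi fusion, stood at 8.64 and 8.56 in the controls against 8.62 and 8.82 with MJDtr-78Q, a difference of 0.12 (SE 0.23). Its partner Membrin (FBgn0260856, 3L, positions 5359554 to 5360481) had the lowest difference among the SNAREs. It stood at 5.80 and 6.27 in the controls against 5.38 and 6.07 with MJDtr-78Q, a difference of -0.31 (SE 0.36) in which the groups overlapped. The other partners of Syx5 in this bundle, Bet1 and Sec22, were nearer 0. Bet1 stood at 6.73 and 6.79 in the controls against 6.53 and 7.15 with MJDtr-78Q, a difference of 0.08 (SE 0.30). Sec22 stood at 8.76 and 8.73 in the controls against 8.64 and 8.74 with MJDtr-78Q, a difference of -0.05 (SE 0.22) that turned to 0.01 in the deposited scaling, relative to all genes. In mammals, relatives of Gos28 and Ykt6 join syntaxin 5 in fusion within the Golgi. Gos28 stood at 6.92 and 6.86 in the controls against 6.61 and 6.94 with MJDtr-78Q, a difference of -0.11 (SE 0.24). Ykt6 stood at 7.81 and 7.98 in the controls against 7.67 and 7.98 with MJDtr-78Q, a difference of -0.07 (SE 0.24).

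Gaps between the libraries of a group went with exonic length. The gap between the MJDtr-78Q libraries exceeded the group difference in 30 of 34 members, as it did in 6698 of 9049 tested genes. A gap between single libraries varies more than a difference of 2-library means, so it is often the larger even where groups do not differ. The control gap was larger than the group difference in some members, such as Spase12 (0.74 against -0.34). It was smaller in others, such as ergic53 (0.04 against 0.28). In MJDtr-78Q heads, library 2 was above library 1 in 33 of 34 members and in 4847 of 9049 tested genes. The median gaps were 0.48 in the members and 0.07 over all tested genes. In control heads library 2 was above in 27 of 34 members and in 4658 of 9049 tested genes, with median gaps of 0.18 and 0.02. In the 13 members shorter than 1000 bases of exon the median gaps were 0.80 in MJDtr-78Q and 0.37 in control heads. In the 21 longer members they were 0.27 and 0.11. The largest gap in MJDtr-78Q heads was 1.10, in twr, and the largest in control heads was 0.74, in Spase12. Both are short genes, of 855 and 493 bases of exon.

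Across the 34 members, the gap fell with log2 exonic length in MJDtr-78Q heads (Spearman's rho = -0.72) and in control heads (rho = -0.72). Over the 8641 tested genes with a length, rho was -0.75 and -0.63. These correlations run across genes of the same libraries, which are not independent replicates, and are given as descriptions. The members had a median exonic length of 1329 bases, against 2163 bases over all tested genes. In the 21 members of at least 1000 bases, library 2 was still above library 1 in 20 with MJDtr-78Q and in 15 in control heads. The part of length in the members' gaps was not tested.

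**Figure D3:**
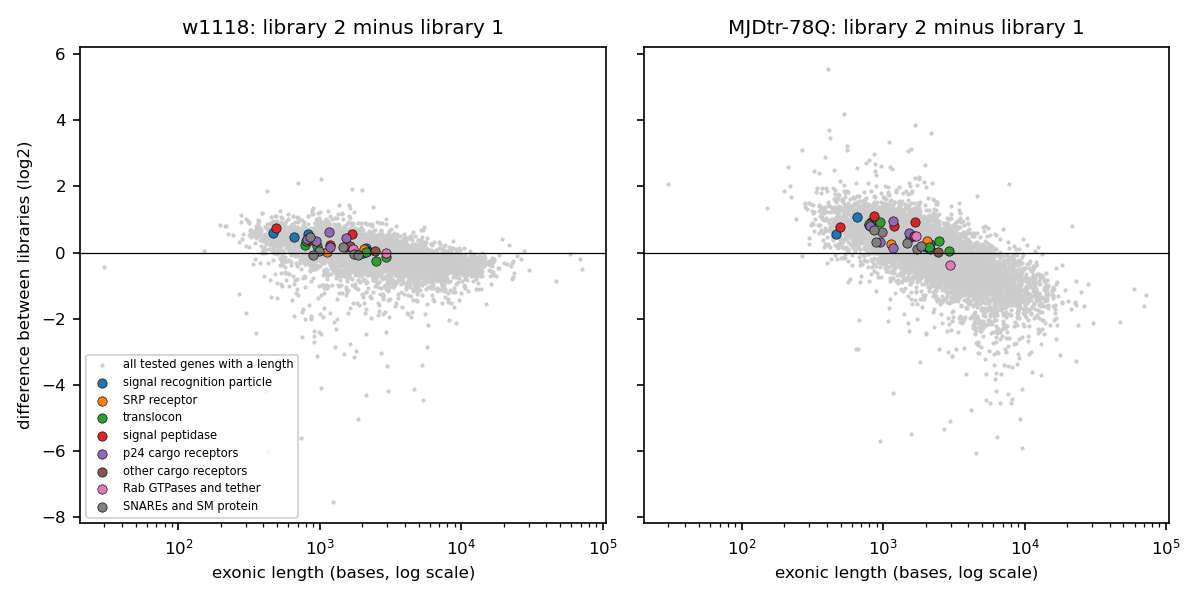
Log2 gap between the 2 libraries of a group (library 2 minus library 1, y axis) against exonic length in bases (log x axis), for control (left) and MJDtr-78Q heads (right); grey points are the 8641 tested genes with a length and coloured points the 34 members by role. The gap falls with length in both panels, more steeply in MJDtr-78Q heads, and short members lie highest.

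With a smooth trend on exonic length removed from each library, the members had smaller standard errors and again none passed the test. Standard errors ran from 0.15 to 0.28, where they had run from 0.22 to 0.43. All 34 intervals then lay within 2-fold, with the widest bounds at -0.96 for Spase22-23 and 0.99 for TRAM. The median difference became 0.12, with 24 members above 0 and 10 below. Over the genes with a length the median was -0.03, with 3899 of 8641 above 0. The largest differences were those of TRAM at 0.49 (SE 0.21), Srp72 at 0.29 (SE 0.16), Sec61gamma at 0.28 (SE 0.16), ergic53 at 0.27 (SE 0.15) and, below 0, Spase22-23 at -0.27 (SE 0.28). By limma 0 of 34 members passed in this fit after adjustment, against 6 of 8641 genes (0.0694%). At an unadjusted p under 0.05, 0 of 34 passed, against 1047 of 8641 genes (12.1%).

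Levels of different members were compared only per kilobase of exon, as log2 of the count per kilobase. For opm, p24-1, Spase25, Bet1 and p115 the annotated exonic length exceeds the span of the deposited locus. Their levels per kilobase may therefore be too low, and ranges that rest on them are uncertain. Subunits of one complex differed in transcript level, by amounts that varied between complexes. The range in control heads was 1.03 for the SRP receptor, 1.19 for signal peptidase and 2.63 for the translocon. In MJDtr-78Q heads it was 0.95, 1.30 and 2.24. Among the SRP proteins, Srp19 was highest in control heads at a mean of 7.99 and Srp72 lowest at 6.58, a range of 1.42. In MJDtr-78Q heads the range was 1.16, with Srp54k highest at 8.01 and Srp72 again lowest at 6.85. The libraries of Srp19, Srp14 and Srp9 overlapped in both groups, so their order is not beyond that spread. With MJDtr-78Q the libraries of Srp54k overlapped those of Srp19, Srp14 and Srp9 too, so its highest place is not beyond it either. Srp68 and Srp72 lay below Srp54k in every library. SrpRalpha was above SrpRbeta in every library, at 7.75 against 6.73 in control and 7.85 against 6.90 in MJDtr-78Q heads.

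In the translocon Sec61beta, SsRbeta and Sec61alpha were the highest, at 9.29, 9.17 and 8.95 in the controls against 9.40, 9.21 and 9.09 with MJDtr-78Q, and the libraries of Sec61beta and SsRbeta overlapped in both groups. TRAM was lowest, at 6.66 in control and 7.16 in MJDtr-78Q heads, below the other translocon genes in every library. In signal peptidase the catalytic twr was above Spase25 and Spase22-23 in every library, with means of 8.75, 7.56 and 7.68 in the controls against 8.66, 7.61 and 7.36 with MJDtr-78Q. Among p24 genes bai was highest, at 9.06 and 9.05. By its annotated length opm was lowest, at 5.76 and 5.73, with the limit on that length given above. Of the SNAREs Sec22 and Syx5 were highest, at 7.93 and 7.70 in control, and Membrin lowest, at 6.24. Rab2 exceeded the tether gene p115 in every library, at 9.42 against 5.85 in control and 9.38 against 5.88 in MJDtr-78Q heads. Because library 1 and library 2 differ along length, comparisons between short and long genes shift by library.

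**Figure D4:**
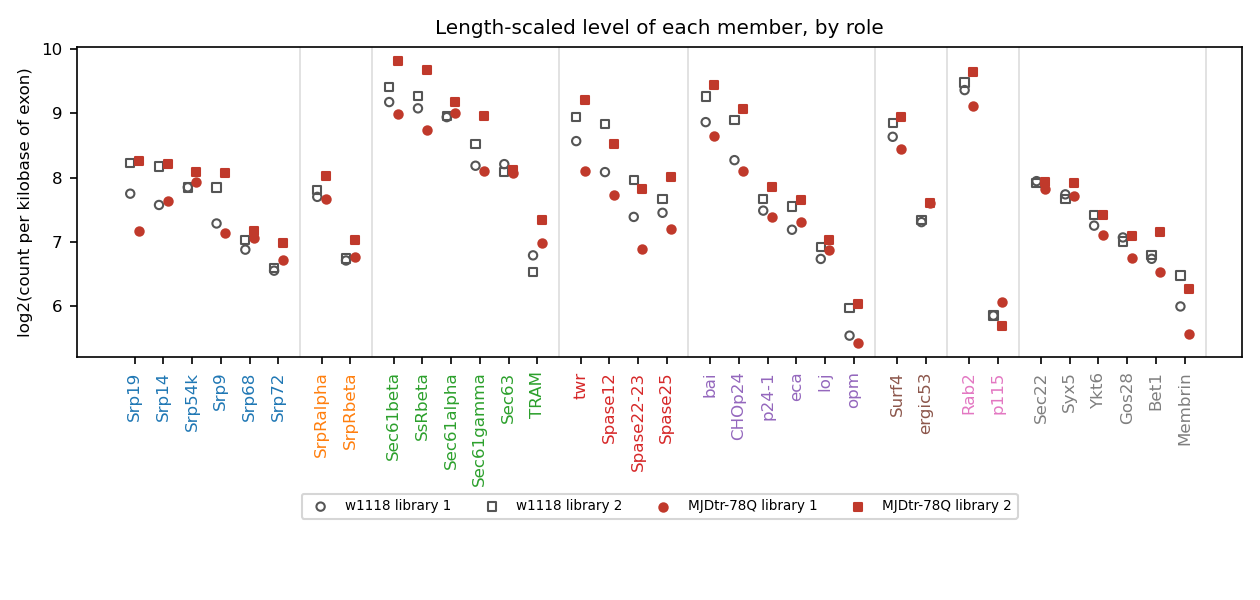
Level of each tested member as log2 of the count per kilobase of exon (y axis), by role and ordered within a role by the control mean; open symbols are control and filled red symbols MJDtr-78Q libraries, circles library 1 and squares library 2. By annotated length the members span 3.66 log2 units in control and 3.67 in MJDtr-78Q heads. They run from Rab2 in control and Sec61beta in MJDtr-78Q heads down to opm. The annotated length of opm, 1533 bases, exceeds the span of its deposited locus, so its lowest place and both spans are uncertain. The largest difference between group means of a member is 0.49, in TRAM.

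Genes that act beside the members were read from lists named by role. Of 54 such genes 48 were in the table by identifier and 45 were tested, with 23 differences above 0, 22 below and a median of 0.02. By limma 0 of the 45 passed, adjusted or at an unadjusted p under 0.05. With the length correction 0 of the 45 passed after adjustment. At an unadjusted p under 0.05, 1 of the 45 did, a TRAPP gene, against 12.1% of the genes with a length. The groups did not overlap for 4 genes higher and 3 lower in MJDtr-78Q heads, against 14.0% and 15.5% of all tested genes.

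The COPII coat, which buds vesicles from the ER, had 7 of 8 differences above 0 and a median of 0.11. The median came to 0.018 with MJDtr-78Q library 1 left out and was 0.28 with library 2 left out. Its cargo-binding subunit gene Sec24CD differed by 0.29 and Sec23 by 0.12, and both had higher values in both MJDtr-78Q libraries. Oligosaccharyltransferase, which adds sugar chains to proteins as they enter the ER, had 3 of 7 above 0 and a median of -0.00058, which turned to 0.03 with TMM scaling and to 0.05 in the deposited and upper-quartile scalings. It moved further with 1 library left out, to 0.18 without MJDtr-78Q library 1, -0.17 if library 2 was dropped, -0.12 without control library 1 and 0.12 if control library 2 was dropped. After length correction it was 0.056. Stt3A, one of its catalytic subunit genes, differed by -0.24 with both MJDtr-78Q libraries below both controls. Of the 10 tested genes of the ER membrane complex, which inserts membrane proteins, 8 were below 0, with a median of -0.07. It became 0.13 with MJDtr-78Q library 1 left out and -0.43 with library 2 left out. With control library 1 left out it became -0.20, with control library 2 left out 0.0084, and after length correction -0.041. EMC10 had the largest difference of that complex, -0.63 (SE 0.50).

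Of 10 listed TRAPP genes 6 were tested, 4 above 0 and 2 below, with a median of 0.24. The median was 0.14 with MJDtr-78Q library 2 left out, 0.10 with control library 2 left out and 0.16 after length correction. The TRAPP gene SIDL differed by 0.35, with overlapping groups. Bet3, one of the core subunits of TRAPP, differed by -0.24, with both MJDtr-78Q libraries below both controls. The NSF gene comt, whose product takes used SNARE bundles apart, differed by 0.23 (SE 0.30) and alphaSnap, its adaptor, by -0.04. The gene Spp, for the protease that cuts cleaved signal peptides within the membrane, differed by 0.28 (SE 0.23). CrebA, a transcription factor known to drive secretory pathway genes in fly embryos, differed by -0.37 (SE 0.43), and Xbp1, a factor of the unfolded protein response, by 0.09 (SE 0.23). The RNA component of SRP is not a poly(A) transcript, and its gene CR42652 stood at 5.27 and 3.44 in the controls against 1.99 and 3.49 with MJDtr-78Q. Its groups overlapped, and its difference of -1.61 (SE 0.89) did not pass.

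The back-transformed totals of the deposited values came to 7147867 and 7147717 for the controls, against 3111583 and 3111393 for MJDtr-78Q. They are nearly equal within each group because of the normalization, so they do not give the depth of a library, which is unknown. Between 4179 and 5151 genes were listed at 0 per library. Markers of neurons (4 of 4 tested), photoreceptors (3 of 4), glia (3 of 3), fat body (3 of 3) and hemocytes (3 of 3) were expressed highly enough to test. Markers of accessory gland were listed at 0 in all libraries, and the ovary markers were at or near 0. The midgut trypsin genes were listed at 0 except in MJDtr-78Q library 2, where the deposited values were 2.95 for alphaTry and 1 for betaTry. By limma none of the marker genes passed. Of the neuron genes elav differed by 0.18, with both MJDtr-78Q libraries higher, but by -0.051 after length correction. Syt1 differed by 0.35, brp by 0.27 and nSyb by -0.013. Of the glia genes repo differed by -0.35, with both MJDtr-78Q libraries lower, while moody differed by 0.23 and Eaat1 by 0.19. All of these except elav and repo had overlapping groups and turned in sign with 1 library left out. Of the photoreceptor genes, the rhodopsin gene ninaE differed by -1.09 (limma adjusted p = 0.595), with both MJDtr-78Q libraries lower, while trp differed by 0.24 and ninaC by -0.014. Of the fat body genes Fbp1 differed by 1.75 (limma adjusted p = 0.804), with both MJDtr-78Q libraries higher, Lsp2 by 0.76 and apolpp by -0.096. The hemocyte genes were all above 0, at 0.77 for eater (limma adjusted p = 0.824), with both MJDtr-78Q libraries higher, 0.47 for Hml and 0.43 for NimC1. Of the flight muscle genes Act88F differed by 1.64 (limma adjusted p = 0.660), with both MJDtr-78Q libraries higher, and fln was too low. TpnC4, also low, stood at 3.25 and 2.71 in the controls against 2.98 and 4.34 with MJDtr-78Q. Its groups overlapped. Its difference of 0.68 (SE 0.69) rests on MJDtr-78Q library 2, the only MJDtr-78Q library above both controls. The median level of the tested flight muscle genes lay at percentile 5.6 of all tested genes. The part of cell makeup in the members' values was not tested.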

How the data were processed

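Poly(A) RNA from fly heads was sequenced after a stranded library preparation, per the labels' protocols. Tools listed without role or order, per the submitters' processing notes, were HTSeq 0.6.1, TopHat2 2.0.10, Bowtie, CASAVA 1.8.2 and cutadapt 1.2.1. The genome build is not given in the sources used here. The deposited values are normalized log2 values, log2(count + 1) as read from their steps, with the same distribution within each group and not between groups. No raw counts were used, so depth is unknown and count tests were not applied.

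All 4 libraries were quantile normalized together. Genes with a back-transformed mean of at least 10 were tested with limma 3.58.1 (R 4.3.3), with an intensity trend and Benjamini-Hochberg adjustment at 0.05, after a test on simulated data. The simulated libraries had no gap that followed exonic length, so the simulation does not cover such gaps. Exonic length came from the Ensembl annotation by gene identifier (95.5% of tested genes), and a loess trend (span 0.5) on it was removed from each library for the length correction. For opm and some other members this length exceeds the span of the deposited locus. Alternatives changed the pseudocount, filter, scaling, variance prior, length correction, replicate block and the libraries used. Of 15682 identifiers 15002 matched a symbol. All analysable members are named. The members and lists were chosen with earlier results of these data known. Sequences were not used here.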

Additional observations from a re-analysis of the deposited data

How the results depend on the processing

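In 16 alternatives 0 of the 34 members passed the test, with a lowest limma adjusted p of 0.147, for TRAM, with the length correction and the replicate block. Over all genes, 6 passed with the length correction, and with 1 library left out 0 to 2 passed. The replicate numbers are shared by only 2 pairs of libraries, whose deviations correlated at 0.54, and nothing says that a number marks a shared batch. With the replicate block 387 of 9049 genes passed, and 756 of 8641 with the block and the length correction. The block left each member's difference as it was and called 0 members. Upper-quartile scaling moved the median of all genes to -0.16 and the deposited scaling to -1.24, and values under both are given relative to it. Of 544 member values in the alternatives 480 kept their sign and 64 turned. Signs were kept throughout by 9 members. The cause of the turns was not tested.

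With TMM scaling, differences became 0.011 for Rab2, 0.021 for Surf4, 0.048 for CHOp24, 0.0074 for Sec63 and 0.041 for bai. In the deposited scaling they were 0.026 for Rab2, 0.037 for Surf4, 0.066 for CHOp24, 0.023 for Sec63, 0.058 for bai and 0.011 for Sec22. With upper-quartile scaling they were 0.033 for Rab2, 0.043 for Surf4, 0.071 for CHOp24, 0.030 for Sec63, 0.063 for bai and 0.016 for Sec22. With the length correction, with or without the block, they were 0.064 for CHOp24, 0.083 for bai, 0.0013 for twr and 0.030 for opm.

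With 1 library left out, the median of the members ran from -0.24 to 0.27, and the difference turned in sign in 24 members. For the translocon genes it ran from -0.30 to 0.52 in Sec61beta, -0.25 to 0.60 in Sec61gamma, -0.12 to 0.0067 in Sec63 and -0.42 to 0.51 in SsRbeta. For the SRP genes it ran from -0.42 to 0.50 in Srp9, -0.25 to 0.35 in Srp14 and -0.81 to 0.26 in Srp19. For the SRP receptor genes it ran from -0.082 to 0.27 in SrpRalpha. For the signal peptidase genes it ran from -0.73 to 0.057 in Spase12, -0.64 to 0.45 in twr, -0.77 to 0.14 in Spase22-23 and -0.35 to 0.44 in Spase25. For the p24 genes it ran from -0.18 to 0.28 in p24-1, -0.41 to 0.38 in bai, -0.48 to 0.48 in CHOp24, -0.067 to 0.29 in eca and -0.32 to 0.27 in opm. For the Rab and tether genes it ran from -0.30 to 0.22 in Rab2 and -0.16 to 0.21 in p115. For the SNARE genes it ran from -0.24 to 0.39 in Bet1, -0.66 to 0.038 in Membrin, -0.28 to 0.051 in Gos28 and -0.22 to 0.081 in Ykt6. For the other cargo receptors it ran from -0.30 to 0.20 in Surf4. Leaving out a library leaves 1 in its group, which limma then assumes to vary like the other group.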
